A study of Drosophila melanogaster with 3 samples.

Results

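The 48 genes described here encode subunits of the Drosophila melanogaster proteasome or close copies of such subunits. They are the protein-coding genes of the Ensembl BDGP6 annotation whose symbol is Prosalpha, Prosbeta, Rpn or Rpt followed by a number, out of 13945 coding genes on 6 chromosome arms. Of the 48, 32 were canonical subunit genes and 16 were copies, recognised by a final R or T in the symbol, with or without a number after it. The rule used names only and no measured value. The study measured where BEAF-32 sits on DNA by chromatin immunoprecipitation and sequencing (ChIP-seq) in 1 group of 3 replicates. The material was whole embryos of both sexes, pooled, aged 0 to 14 h, from a transgenic line in which BEAF-32 carries GFP at its C-terminus (BEAF-32-GFP), and an anti-GFP antibody pulled down the sonicated chromatin (size range 200 to 800 bp). All libraries came from that line. The labels do not give the promoter of the transgene, nor whether the flies keep untagged BEAF-32. Peak lists carry no expression values, so neither the tissue nor the testis use of the copies could be checked in these data.

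The 26S proteasome is the protease that takes apart proteins marked with ubiquitin. Its core particle is a barrel of stacked rings, with the gate formed by alpha subunits and the cutting sites carried by beta subunits. A regulatory particle caps the barrel: its base holds a ring of Rpt ATPases that unfold substrates, together with the ubiquitin receptors, and its lid holds the deubiquitinase Rpn11 and its scaffold. Drosophila also has extra gene copies of several subunits, and a number of them are known to be used in the male germ line. BEAF-32 is a DNA-binding protein first found at a chromatin domain boundary of the heat-shock locus; it recognises clusters of the string CGATA, and many of its sites lie near starts of housekeeping genes.

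The bases just upstream of the start are shown first. In this window canonical genes and copies differ in how often CGATA occurs. Each line is the 100 bases directly before the outermost annotated start, 5′ to 3′ on the strand of the gene, from the RefSeq Release 6 genome (dm6). Lower case is plain sequence, and capitals mark CGATA on either strand, so that TATCG is the same string read from the other strand and TATCGATA holds it on both strands. The lines pair canonical genes with their copies where both windows lie outside annotated exons.
Prosalpha6 (chr2L:10221251-10221350, plus strand): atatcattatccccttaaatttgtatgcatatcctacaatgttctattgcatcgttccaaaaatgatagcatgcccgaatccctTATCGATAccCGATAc
Prosalpha6T (chr2L:13231939-13232038, plus strand): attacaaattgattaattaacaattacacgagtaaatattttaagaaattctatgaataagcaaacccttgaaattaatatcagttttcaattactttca
Prosbeta2 (chr3L:14999851-14999950, plus strand): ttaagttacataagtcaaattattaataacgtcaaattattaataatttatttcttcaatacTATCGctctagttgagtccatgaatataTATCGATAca
Prosbeta2R1 (chrX:5808854-5808953, plus strand): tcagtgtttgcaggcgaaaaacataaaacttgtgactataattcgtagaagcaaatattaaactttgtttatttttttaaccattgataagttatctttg
Prosbeta2R2 (chr3R:5219529-5219628, minus strand): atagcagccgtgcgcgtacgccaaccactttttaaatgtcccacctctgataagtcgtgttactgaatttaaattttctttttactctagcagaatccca
Prosbeta4 (chr2L:16732134-16732233, minus strand): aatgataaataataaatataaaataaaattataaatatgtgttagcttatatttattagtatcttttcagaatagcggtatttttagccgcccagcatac
Prosbeta4R1 (chr2L:2652946-2653045, plus strand): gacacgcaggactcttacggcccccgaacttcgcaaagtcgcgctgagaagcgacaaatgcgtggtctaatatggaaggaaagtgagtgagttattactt
Rpn12 (chr3L:16582928-16583027, plus strand): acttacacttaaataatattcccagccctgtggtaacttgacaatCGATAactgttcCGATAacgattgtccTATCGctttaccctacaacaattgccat
Rpn12R (chr3L:15042571-15042670, minus strand): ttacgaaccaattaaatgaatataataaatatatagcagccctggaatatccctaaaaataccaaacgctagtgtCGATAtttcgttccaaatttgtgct
Rpt6 (chrX:21315952-21316051, plus strand): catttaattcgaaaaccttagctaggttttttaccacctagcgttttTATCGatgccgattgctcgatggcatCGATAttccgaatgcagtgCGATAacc
Rpt6R (chr3R:30583698-30583797, minus strand): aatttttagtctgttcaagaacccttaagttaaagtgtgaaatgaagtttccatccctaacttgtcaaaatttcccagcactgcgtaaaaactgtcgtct
CGATA stood 3 times in each of the windows of Prosalpha6, Prosbeta2, Rpn12 and Rpt6, and did not occur in that of Prosbeta4. Among the copies shown it stood once, upstream of Rpn12R. Over all members, 17 of 32 canonical genes (53.1%) and 2 of 16 copies (12.5%) had CGATA in this window, against 28.3% of all coding genes. The windows of the canonical genes Rpn10, Rpn5 and Rpt3, not shown, held none. The low share of copies depends on the window. Within 200 bp of the outermost start, CGATA was present at 87.5% of canonical genes, 56.2% of copies and 54.2% of all coding starts. A match to these letters is a description of the sequence and not a mapped binding site.

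BEAF-32-GFP summits stood at the starts of almost all canonical proteasome genes and of few copies. A gene is called bound here if any of its annotated starts has a summit no farther than 500 bp away. In the authors' reproducible list, the peaks they kept after irreproducible discovery rate (IDR) thresholding, 30 of 32 canonical genes were bound (93.8%), 3 of 16 copies (18.8%) and 43.7% of all coding genes. The list holds 6070 summits with peak signals between 138.94 and 22476.84 (median 578.8), and a summit is the single position of highest enrichment in a peak. Over all members the median distance to the nearest summit was 56 bp for canonical genes and 28432 bp for copies, against 1990 bp for all coding genes. The members next to the 500 bp limit were Rpn11, with a summit 339 bp from its start, and Prosbeta4, whose nearest summit lay 2366 bp away.

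**Figure D1:**
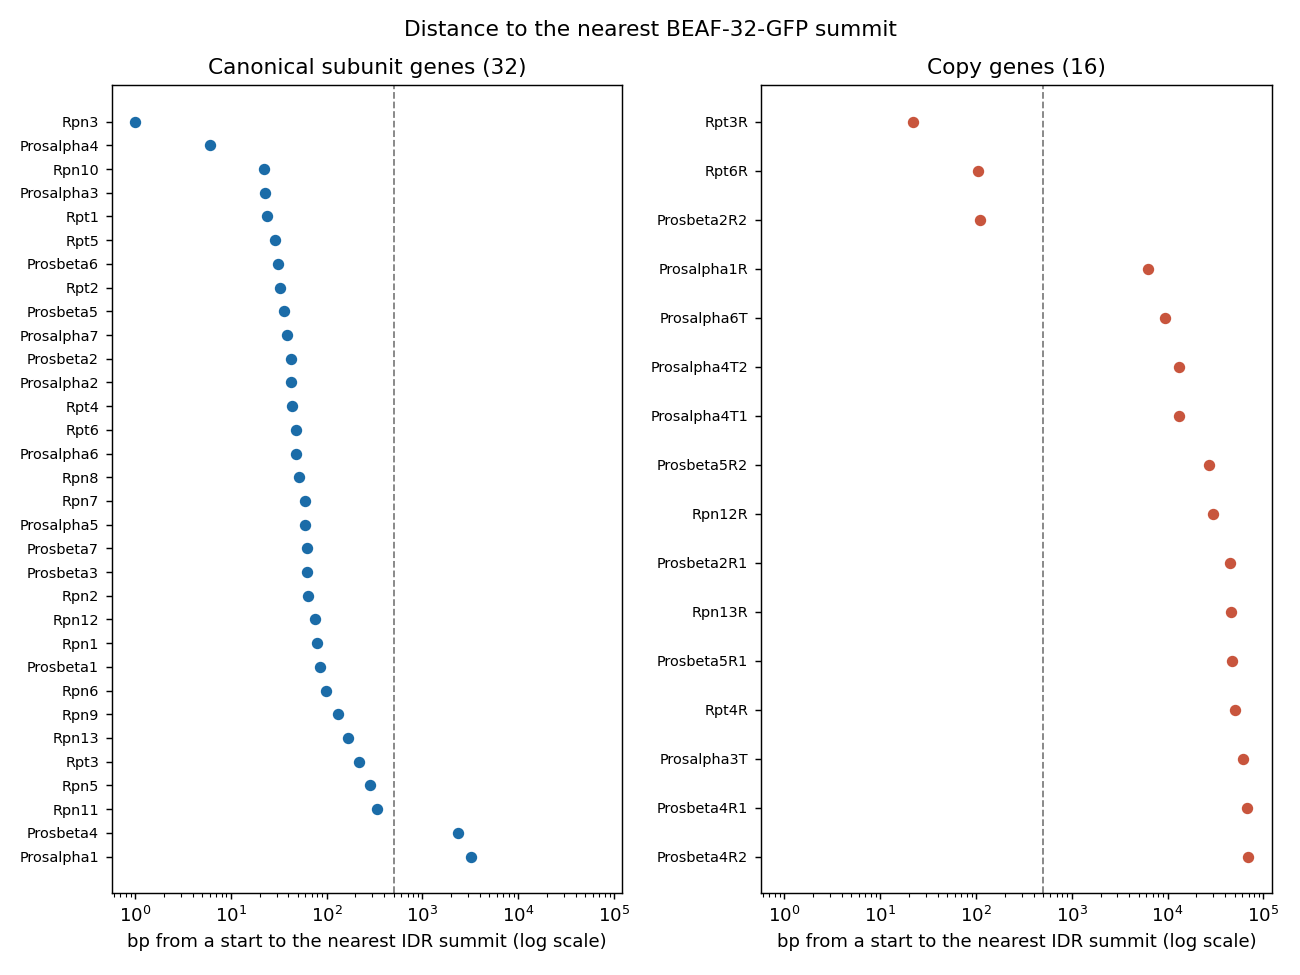
Distance from the nearest annotated start of each gene to the nearest reproducible (IDR) summit, on a log axis in bp, for the 32 canonical genes (left) and the 16 copies (right); the dashed line marks 500 bp. Of the canonical genes, 30 lie left of the line, and 13 of the 16 copies lie at 6319 bp or more.

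The 3 replicate libraries gave the same contrast. To compare lists of equal length, the strongest 6070 summits of each replicate's own relaxed list were used. Canonical genes were bound in 93.8%, 90.6% and 93.8% of cases in replicates 1, 2 and 3 (92.7 ± 1.8%, SD, n = 3), and copies in 12.5% in each. All coding genes were bound in 42.9%, 39.5% and 42.2% (41.5 ± 1.77%, SD, n = 3). The difference between canonical genes and copies was 81.2, 78.1 and 81.2 percentage points (80.2 ± 1.8, SD, n = 3), against 75.0 points in the reproducible list. In every replicate the canonical share lay above, and the copy share below, the share of all coding genes, and both gaps exceeded the spread between replicates. Of the canonical genes, 29 were bound in all 3 replicates, Rpn8 in 2 of them, and Prosalpha1 and Prosbeta4 in none. Of the copies, Prosbeta2R2 and Rpt3R were bound in all 3 and the other 14 in none. No test was run on these counts, since there is 1 group and genes are not replicates. Read depth is not known from peak lists, so no counting error can be attached to a single signal.

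**Figure D2:**
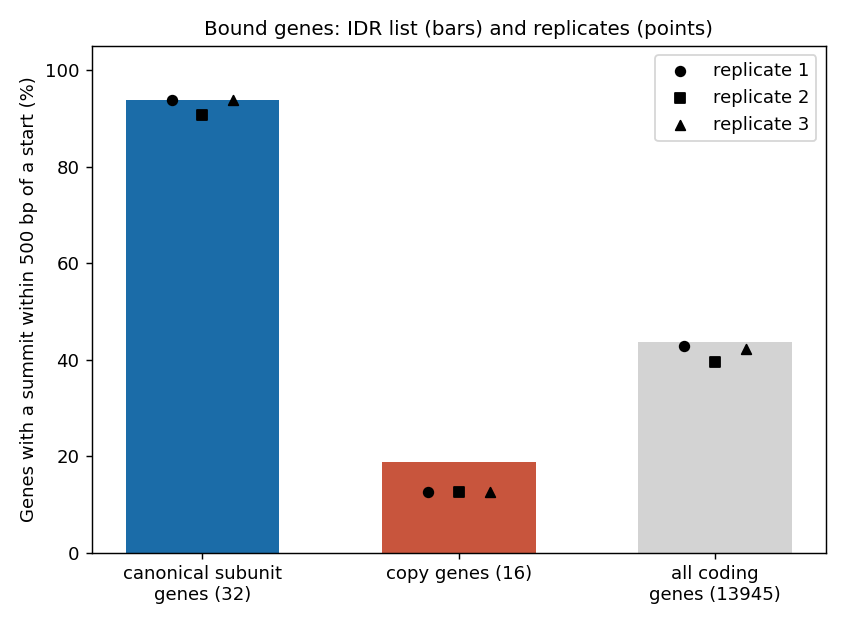
Percentage of genes with a summit within 500 bp of a start, for the 32 canonical genes, the 16 copies and all 13945 coding genes; bars show the reproducible list and points the strongest 6070 summits of replicates 1, 2 and 3. The replicate points for canonical genes lie between 90.6% and 93.8%, those for copies at 12.5%, and those for all coding genes between 39.5% and 42.9%.

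The typical summit at a canonical gene ranked ahead of the typical one at a bound gene. Ranked by signal in the reproducible list, from 1 for the strongest, the nearest summits of the 30 bound canonical genes had a median rank of 1524.5, against 2354.5 for all bound coding genes. In the relaxed lists of replicates 1, 2 and 3, the median rank of the strongest summit within 500 bp of these genes was 1485, 1748 and 1539. Of the 30, 26 fell among the strongest 3035 summits of the reproducible list (86.7%), where 62.4% of all bound coding genes fell. The strongest 607 summits held 7 of them (23.3%, against 14.7%). The order of the 30 genes by signal was nearly the same in every library. Spearman's rho was 0.974 between replicates 1 and 2, 0.989 between 1 and 3 and 0.987 between 2 and 3 (n = 30 genes, which share the libraries and are not independent). These genes have summits kept by IDR thresholding, which selects for agreement between the same replicates, so a high rho is partly built in.

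In position these summits were similar to those of bound genes in general, which lie within 500 bp of a start by definition. For bound canonical genes the median distance was 50 bp (range 1 to 339), against 67 bp for all bound coding genes. The summit lay upstream of the nearest start in 27 genes and downstream in 3 (Rpn3, Rpn10 and Rpt2); over all bound coding genes 89.4% lay upstream. For Prosbeta7, Rpn6, Rpn8 and Rpn9 that start lies inside the gene, and the summit is downstream of the outermost start. By annotation, 20 of the 30 summits were intergenic, 6 lay in an intron and 4 in a 5′ UTR. Another coding gene started within 500 bp of the summit in 20 of the 30 (66.7%, against 58.8% of all bound coding genes). The peak regions had a median width of 865.5 bp. For the genes described next, replicate signals and ranks are those of the strongest summit within 500 bp in the relaxed list of that replicate, and other ranks are those of the nearest summit in the reproducible list.

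**Figure D3:**
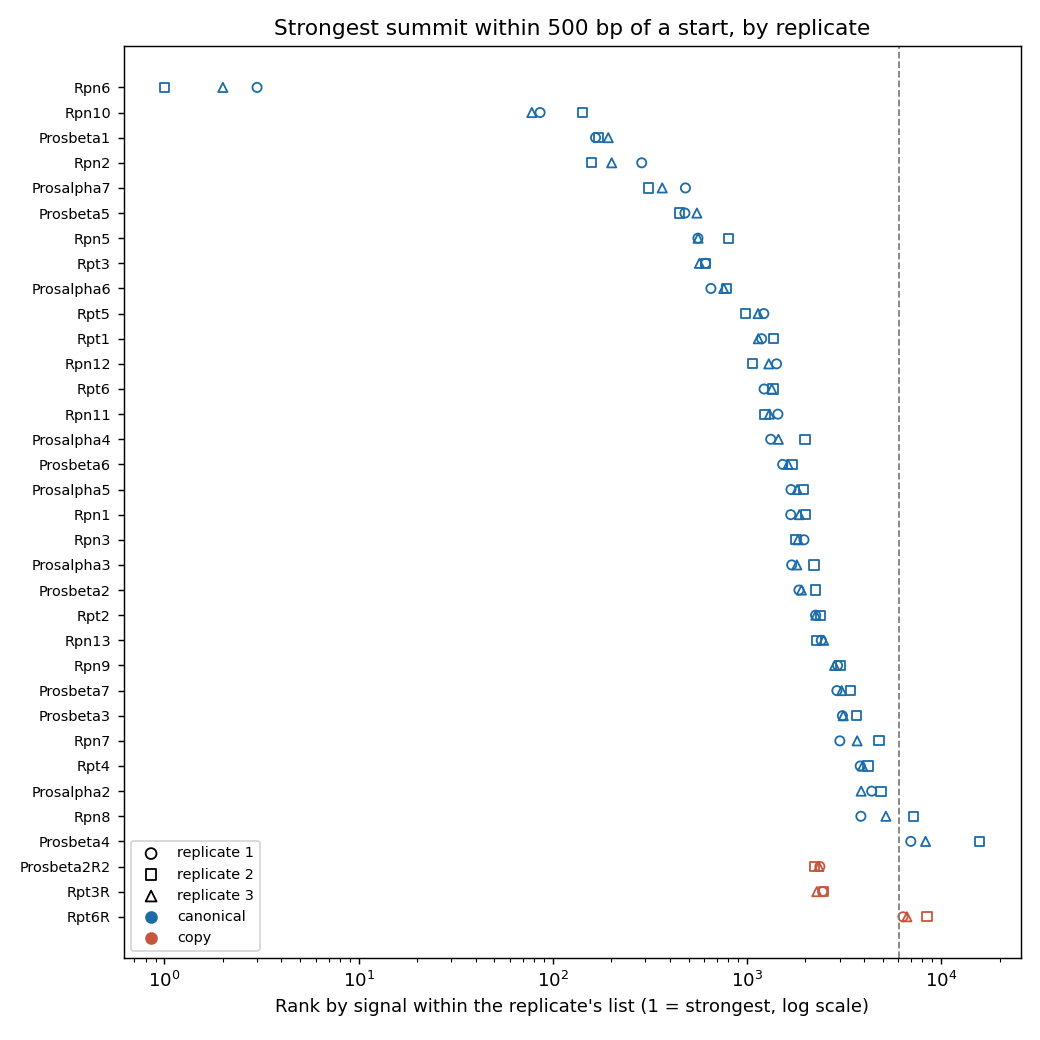
Rank by signal (1 = strongest, log axis) of the strongest summit within 500 bp of a start in the relaxed list of replicate 1 (circle), 2 (square) and 3 (triangle), for every canonical gene (blue) and copy (red) that has one; the dashed line marks rank 6070. Rpn6 holds ranks 1 to 3, and Prosbeta4, Rpt6R and, in replicate 2 only, Rpn8 lie beyond the line.

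In the alpha ring, which gates the entrance of the core particle, 6 of 7 canonical genes were bound (median rank 1612). The strongest was Prosalpha7 (FBgn0023175, chr2R:9846636-9847836), with a summit 39 bp upstream of its start. Its signal was 2326, 2129 and 2670 in the lists of replicates 1, 2 and 3 (ranks 482, 310 and 366). The same summit serves CG1671, whose start points away from that of Prosalpha7 at a distance of 225 bp. The weakest was Prosalpha2 (FBgn0086134, chr3R:12431321-12432556), with a summit 42 bp upstream, signals of 112, 106 and 155 and ranks of 4388, 4900 and 3870. It has no divergent neighbour and no other coding gene at its summit. Both genes kept their places at the opposite ends of the ring in every library. Between them lay Prosalpha6 at rank 730 in the reproducible list, 48 bp upstream and opposite the sterol transporter gene Npc1a. Prosalpha4 followed at rank 1486, 6 bp upstream and opposite the katanin subunit gene kat80. Prosalpha5 held rank 1738 at 60 bp, and Prosalpha3 rank 1852 at 23 bp, next to the augmin subunit gene dgt3.

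In the beta ring, which carries the cutting sites, 6 of 7 canonical genes were bound (median rank 1781). The strongest was Prosbeta1 (FBgn0010590, chr2R:16013805-16014787), the caspase-like subunit, with signals of 3497, 2591 and 3408 (ranks 166, 172 and 193). Its summit lies 85 bp upstream, between it and Rrp42, an exosome subunit gene on the other strand, and the starts of the pair are 121 bp apart. The weakest was Prosbeta3 (FBgn0026380, chr3R:9005313-9006226), a structural subunit with no intron, with signals of 213, 175 and 226 (ranks 3100, 3650 and 3131). The other catalytic subunits were also bound: Prosbeta5, the chymotrypsin-like one, at rank 494 in the reproducible list, 36 bp upstream and opposite dgo. Prosbeta2, the trypsin-like one, held rank 1999 at 42 bp, opposite the mitochondrial ribosomal protein gene mRpL39. Prosbeta6 had rank 1563, with a summit 31 bp upstream. Prosbeta7 had rank 2878, with a summit 62 bp upstream of a start inside the gene, in a 5′ UTR.

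All 10 canonical genes of the base were bound (median rank 1239.5). The base gene with the strongest summit was that of the ubiquitin receptor Rpn10 (FBgn0015283, chr3L:21537000-21538582), with signals of 4143, 2713 and 4133 (ranks 86, 142 and 78) and a summit 22 bp inside its 5′ UTR, at which no other coding gene starts. The weakest was the ATPase gene Rpt4 (FBgn0028685, chrX:6289470-6291245), with signals of 144, 139 and 151 (ranks 3829, 4202 and 3940), 44 bp upstream. Its start lies 58 bp from the divergent start of mldr. The other ATPases spread between these: in the reproducible list Rpt3 ranked 608, Rpt5 1106, Rpt1 1200, Rpt6 1279 and Rpt2 2162. Rpt1, which lies inside CG17985, had its own summit 24 bp upstream. The scaffold genes Rpn2 and Rpn1 ranked 210 and 1753, and the receptor gene Rpn13, with a summit 167 bp upstream, ranked 2302. The signals of the 6 ATPase genes in that list ran from 442 (Rpt4) to 5538 (Rpt3).

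All 8 canonical genes of the lid were bound as well (median rank 1582.5), and they included the canonical genes with the strongest and the weakest nearest summit in the reproducible list. Rpn6 (FBgn0028689, chr2R:14750166-14752910), a scaffold subunit that contacts the core particle, had signals of 6914, 5231 and 6854 and ranks of 3, 1 and 2. Its peak spans chr2R:14751704-14753083, and the summit lies 99 bp upstream of 1 of its starts, in an intron of a longer transcript, within 500 bp of the start of ave, which encodes an adaptor of receptor tyrosine kinase signalling. The outermost start of Rpn6 lies 17559 bp from that of BEAF-32, the gene that was tagged. Within 20000 bp of the Rpn6 summit the pooled relaxed list held 18 summits on the side of BEAF-32 and 2 on the other side. The fuller side of the other bound canonical genes held a median of 16 (range 2 to 23), and 7 of these genes had at least as many as Rpn6. The labels do not say how much DNA around BEAF-32 the transgene carries, and its part in the Rpn6 value was not tested. Without Rpn6 the median rank of the canonical genes was 1563.

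At the weak end of that list was Rpn8 (FBgn0002787, chr2R:24400028-24404527), the partner of the deubiquitinase Rpn11. Its reproducible summit lies 52 bp upstream of a start inside the gene and near a start of the kinase gene Slik. The nearest replicate summits, at 25, 73 and 22 bp, had signals of 102, 36.7 and 60.8 (ranks 4602, 8282 and 6240). The strongest within 500 bp were other summits, 224, 276 and 222 bp from a start. They had signals of 142, 49.4 and 90.8 (ranks 3860, 7215 and 5192). In replicate 1 Prosalpha2 (rank 4388) ranked behind the strongest Rpn8 summit and ahead of the nearest. By the strongest summit, Rpn8 was the only bound canonical gene that missed the strongest 6070 of a replicate. Rpn11 itself ranked 1344 in the reproducible list, with its summit 339 bp upstream. The other lid genes encode scaffold subunits. Among them Rpn5 ranked 606 (281 bp upstream, opposite the histone acetyltransferase gene Hat1), Rpn12 1269 and Rpn3 1821, with a summit 1 bp from its start. Rpn9 ranked 2714 and Rpn7 3332.

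Prosbeta4 and Prosalpha1 were the canonical genes without a reproducible summit. Prosbeta4 (FBgn0032596, chr2L:16731180-16732133), a structural beta subunit gene, had weak summits in every relaxed list, which hold peaks the authors called before IDR thresholding. The strongest within 500 bp had signals of 38.2, 17.2 and 32.6 in replicates 1, 2 and 3 (ranks 6976, 15795 and 8309) and 60.3 in the pooled list (rank 8802). These ranks all lie beyond the 6070 summits of the reproducible list. In the pooled relaxed list 59.7% of all coding genes had a summit within 500 bp, and so did 28.5% of the genes without a reproducible one. Prosbeta4 has a divergent neighbour, Nubp1, 417 bp away, and no CGATA within 200 bp of its start.

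Prosalpha1 (FBgn0263121, chr2R:7827303-7828678) had no summit within 500 bp in any of the 5 lists used, and its nearest reproducible one (signal 554) lay 3226 bp downstream at CG30383 and phr. It cannot be separated from its copy Prosalpha1R (FBgn0050382, chr2R:7830413-7831771) by sequence. The starts of the pair lie 3093 bp apart, their coding sequences were identical over 732 bases, and so were the 500 bases before the starts. Every string of 32 bases within 500 bp of either start occurs more than once on the 6 arms. Of the other 46 members, 43 had no such repeated string and the highest share was 10.5% (Rpn3). The labels and notes do not tell how reads with several placements were treated, so binding at this pair could not be assessed. Without Prosalpha1, 30 of 31 canonical genes were bound. Prosalpha1R is counted as unbound among the 16 copies, and without it the count of bound copies stays at 3.

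The 3 bound copies lie on arm 3R. Prosbeta2R2 (FBgn0037296, chr3R:5217751-5219528) had a summit 110 bp upstream with signals of 367, 393 and 395 (ranks 2374, 2218 and 2344). That summit is shared with CG1116, which starts on the other strand 129 bp from the start of Prosbeta2R2, and CGATA occurs 3 times within 100 bp of it, the nearest 4 bp away. Its window shown above holds none, since those strings lie farther upstream. Rpt3R (FBgn0037742, chr3R:9754735-9756510) had 2 reproducible summits. The nearer, 22 bp upstream, had a signal of 155 (rank 5780); the stronger, 117 bp away, had 1074 (rank 2265), and in the replicates it held ranks 2451, 2474 and 2288 with signals of 342, 324 and 414. A start of Alg12 lies within 500 bp of the nearer one.

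Rpt6R (FBgn0039788, chr3R:30582198-30583697) had the weakest nearest summit of all bound members in the reproducible list, 106 bp upstream, with a signal of 140 and rank 6052 of 6070 in the reproducible list. In the replicates its signals were 47.8, 35.5 and 52.6 (ranks 6355, 8450 and 6661), outside the strongest 6070 each time. No other coding gene starts at this summit, and no CGATA lies within 100 bp of it. The canonical partners had nearest reproducible summits at rank 1999 (Prosbeta2), 608 (Rpt3) and 1279 (Rpt6), each ahead of its copy in that list. The stronger Rpt3R summit, at rank 2265, also stood behind that of Rpt3. In replicates 1, 2 and 3 the strongest summit within 500 bp had ranks 1852, 2253 and 1907 at Prosbeta2, so that in replicate 2 the copy Prosbeta2R2, at rank 2218, stood ahead of it. Rpt3 (ranks 612, 609 and 569) and Rpt6 (ranks 1225, 1360 and 1342) stood ahead of their copies in every replicate.

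The 13 unbound copies lay far from any reproducible BEAF-32-GFP summit. They include Prosalpha1R, where binding could not be assessed. Their nearest reproducible summit was 6319 bp (Prosalpha1R) to 69913 bp (Prosbeta4R2) away, with a median of 44424 bp, against a median of 11165 bp for all unbound coding genes; 11 of the 13 lay farther than that. Apart from Prosalpha1R the nearest was Prosalpha6T, at 9505 bp. Prosalpha4T2 and Prosalpha4T1 followed at 13071 and 13302 bp. In each case the nearest summit lay within 500 bp of the start of another coding gene, as did 85.9% of all reproducible summits. Prosbeta4R1 and Prosbeta4R2, neighbours on 2L, faced the same summit, at the mitochondrial fission gene Drp1, from 67565 and 69913 bp. Prosalpha3T lay 61902 bp from a summit at the casein kinase gene dco and Rpt4R 51156 bp from one at viaf. Prosbeta5R1 stood at 47592 bp, Rpn13R at 46224 bp, Prosbeta2R1 at 44424 bp, Rpn12R at 29741 bp and Prosbeta5R2 at 27123 bp.

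The relaxed lists gave no weaker summit at these copies either. None of the 13 had one within 500 bp in the pooled list or in any replicate list. Among all coding genes without a reproducible summit, 28.5% had one in the pooled list and 26.3%, 25.9% and 28.5% in the lists of replicates 1, 2 and 3. The nearest replicate summit of any of them was 1310 bp away, in replicate 1, and the medians were 4585, 14080 and 10926 bp in the 3 replicates. Of the canonical genes, 31 of 32 had a summit within 500 bp in the pooled list, against 59.7% of all coding genes. The count was also 31 in each replicate list, against 58.4%, 57.9% and 59.6% of all coding genes in replicates 1, 2 and 3.

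Copies and canonical genes differ in coding sequence, structure and neighbourhood. Apart from the identical pair, coding identity between a copy and its canonical gene was 58.3% (Prosbeta4R1) to 78.2% (Rpt6R). A divergent partner, here an adjacent coding gene on the other strand that is transcribed away from the gene from a start at most 1000 bp distant, was present for 19 of 32 canonical genes (59.4%) and 3 of 16 copies (18.8%), against 32.1% of all coding genes. In the annotation used, 4 canonical genes (12.5%) and 6 copies (37.5%) had no intron, against 16.1% of all coding genes. Rpt1 and 3 copies (Prosalpha4T1, Rpn12R and Rpn13R) lie inside another coding gene. By arm, canonical genes numbered 4 on 2L, 10 on 2R, 5 on 3L, 9 on 3R and 4 on X, and copies 4, 3, 2, 5 and 2.

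The canonical genes were bound with and without a divergent neighbour. With a partner 17 of 19 were bound, against 76.9% of all coding genes with one. Without a partner 13 of 13 were bound, against 27.9% of all coding genes without one. The median rank was 1486 with a partner and 1563 without. Prosalpha2, Prosalpha5, Prosbeta6, Rpn1, Rpn12 and Rpt6 are among the 13, and no other coding gene starts within 500 bp of their summits. Of the copies, 1 of 3 with a partner and 2 of 13 without were bound.

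Structure gave a similar picture. All 4 intronless canonical genes (Prosbeta3, Rpn7, Rpn12 and Rpt1) were bound, and none of the 6 intronless copies (Prosalpha3T, Prosalpha4T1, Prosalpha6T, Prosbeta5R2, Rpn12R and Rpn13R), against 24.0% of all intronless coding genes. With neither intron nor partner, 2 of 2 canonical genes and 0 of 6 copies were bound, against 11.8% of such genes overall. Rpn12 and Rpn12R show this within a pair, as both lack introns and a partner. The summit of Rpn12 stands 75 bp upstream at rank 1269, and that of Rpn12R is the one 29741 bp away at Plp, a centrosome gene. The pair differs in that Rpn12R lies inside the coding gene Sytbeta and Rpn12 inside none. The groups are small, and how much of the difference in binding goes with neighbours, introns or sequence was not tested.

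CGATA was also counted around the summits, which need not lie in the upstream windows described above. CGATA lay within 100 bp of the nearest summit of 26 of 30 bound canonical genes (86.7%), against 58.3% of all reproducible summits. It occurred at least 2 times at 19 of them (63.3%, against 37.2%), counting each strand. A single TATCGATA counts as 2 in this way. At Prosalpha3, Prosalpha5, Prosbeta6, Rpn3, Rpn7 and Rpn13 the 2 are 1 such string and not separate sites. Those 19 had a median rank of 1279 (1529.5 over all summits with as many), and the other 11 a median rank of 2714 (3870.5 over all summits with 0 or 1). Rpn6 carried the most, 6. The 4 genes with none were Prosalpha2, Prosbeta3, Rpn8 and Rpt4, with a median rank of 3764.5 (4134.5 over all summits with none). They are the weakest bound genes of their 4 particle parts.

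**Figure D4:**
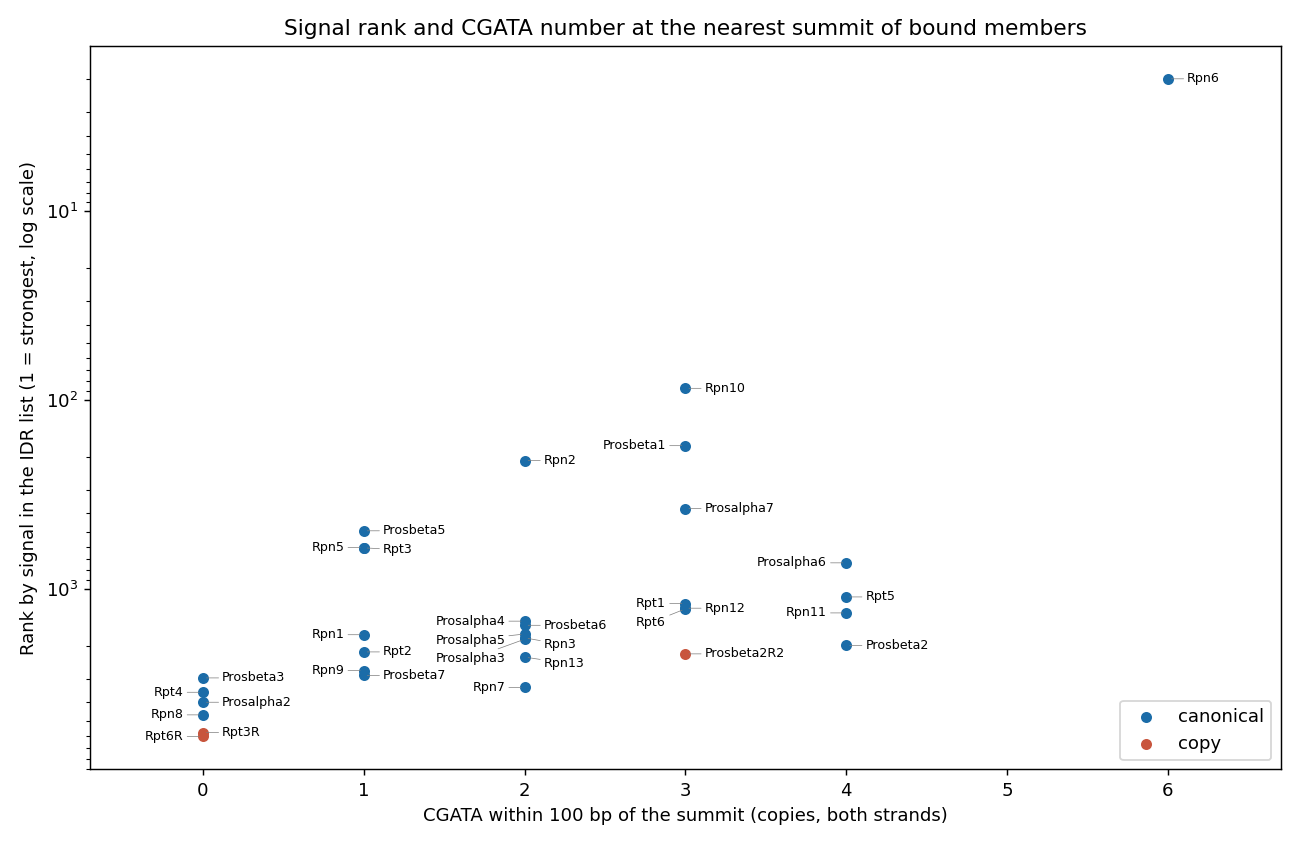
Rank by signal in the reproducible list (1 = strongest, log axis) against the number of CGATA strings on both strands within 100 bp of the nearest summit, for the 30 bound canonical genes (blue) and the 3 bound copies (red). Genes with no CGATA lie at rank 2968 or weaker, and Rpn6, with 6, lies at rank 2.

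Of the other strings searched on both strands, TATCGATA is the core of the element bound by the factor Dref and reads the same on both strands; it contains CGATA, so the counts overlap. It lay within 100 bp of the summit at 11 of 30 bound canonical genes (36.7%, against 16.9% of all summits). GGTCACACT, a core promoter element of housekeeping genes, lay at 5 of them (16.7%, against 8.27%), namely Prosalpha2, Prosalpha4, Rpn1, Rpn7 and Rpn8. Around the outermost starts of all members, within 200 bp, TATCGATA was present at 10 canonical genes (31.2%) and no copy (0.0%), against 9.14% of all coding starts. GGTCACACT was present at 4 canonical genes (12.5%) and no copy (0.0%), against 6.06%. CGATA alone was present at 28 canonical genes (87.5%) and 9 copies (56.2%), against 54.2% of all coding starts. Of the 9 copies, 7 were unbound.

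Genes that assemble, regulate or feed the proteasome were mostly bound as well. Of a list of 26 symbols, 23 were found, and 22 of these were bound (95.7%, against 43.7% of all coding genes). Their nearest summits had a median rank of 2652, behind the 2354.5 of all bound coding genes. Signals below are those of the nearest reproducible summit unless stated otherwise. The strongest were delivery factors: TER94, the segregase that extracts ubiquitinated proteins, had a signal of 12024 (rank 52), and the shuttle genes rngo and Ubqn had 10337 and 10031. CG12096, entered in the list under assembly, had 9443, and Pomp, the maturation factor of the core particle, 956. Uba1, the ubiquitin-activating enzyme gene, had 5789. The regulators Usp14, a proteasome-bound deubiquitinase, and PI31 had 3248 and 2842. PI31 and the regulator gene REG also had a stronger reproducible summit within 500 bp, with 4431 (rank 869) and 1902 (rank 1730). The transcription factor gene cnc, whose product is known to activate proteasome genes, and that of its partner maf-S had 355 and 286. The cnc summit lies in an intron, 387 bp from 1 of its 10 starts, a start inside the gene. Sem1, a small lid subunit whose symbol lies outside the naming rule, had 165 and was bound in 1 replicate. RpL40, a ubiquitin fusion gene, was the member of the list without a reproducible summit within 500 bp, the nearest lying 679 bp away. In the relaxed lists its strongest summit within 500 bp had a signal of 79.7 in the pooled list and ranks of 5505, 7021 and 5346 in replicates 1, 2 and 3, so it was among the strongest 6070 in replicates 1 and 3.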

How the data were processed

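BEAF-32-GFP ChIP-seq was read from the authors' peak lists in build dm6: 1 IDR-thresholded list, 1 relaxed list of the pooled libraries and 1 relaxed list for each of 3 replicates. Per the deposited notes that accompany them, the lists were made from alignments with a control; neither those notes nor the labels name the aligner, the caller, their versions or the thresholds. The deposited columns used were the authors' signal value, whose scale is not stated and which was used by rank within a list, the −log10 q-value (read but not used for a result) and the summit offset. The IDR list carries the pooled signal. Read depth is unknown. Lists in build dm3 were not used here.

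Starts came from Ensembl release 115 (BDGP 6.54) and bases from RefSeq Release 6. A gene was bound when a summit lay within 500 bp of any start. Shares are given with mean ± SD over the strongest 6070 summits of each replicate; where nothing says embryos were collected separately, the spread may be technical. Every member is named. Described in full are the strongest and weakest bound canonical gene of each particle part, unbound canonical genes, bound copies, and the nearest and farthest unbound copy. Sequence pairs shown are all those off arm 2R whose windows hold no exon. The members and lists were chosen with earlier results of these data known, so no p-value is given. Coding sequences were aligned globally (match 1, mismatch -1, gap open -4, gap extension -0.5). Scripts used Python 3.11.15, numpy 2.4.6, pandas 2.3.3, biopython 1.88, scipy 1.17.1 and matplotlib 3.10.9 and were tested on simulated data. Alternatives were other distances, lists, starts and windows, and leaving out each replicate.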

Additional observations from a re-analysis of the deposited data

How the results depend on the processing

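Of 56 alternative values, 45 stayed within the spread between replicates or within 1.5 times the count, 11 moved and none changed direction. A count of 30 out of 32 genes cannot rise 1.5 times, so for such counts this limit is a loose one. The difference between canonical genes and copies, 75.0 percentage points, was 68.8 with the strongest 3035 reproducible summits, 78.1 with the pooled relaxed list, 65.6 at 200 bp and 68.8 from the outermost start alone. Over replicates, the canonical share of 92.7% was 75.0% with the strongest 3000 summits and 96.9% with all, the copy share of 12.5% was 18.8% with all, and the difference of 80.2 points was 62.5 and 78.1. Leaving out 1 replicate gave 92.2 to 93.8% for canonical genes, 12.5% for copies and 79.7 to 81.2 points for the difference. Among the strongest 3035 reproducible summits the canonical median rank was 1311.5, and a cut at that rank can only lower the median. In that set 14 rather than 22 genes of the wider pathway list were bound. The share of all coding genes is not given for the strongest 3035 or 3000 summits, 200 bp or the outermost start. Whether the contrast with all coding genes weakens at these settings was not tested. For the counts of bound genes, leaving out Prosalpha1, Prosalpha1R or Rpn6 was chosen after seeing the data. Prosalpha1 and Prosalpha1R were unbound, so leaving them out could not change a count. Leaving out Rpn6 only took that gene from the count. No paired analysis was possible because there is 1 group and no test.

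Peak lists give no depth, so a gene without a summit is one where none was called. Nothing used here names the caller or its handling of repeated sequence. Whole embryos mix cell types, and the lists hold no testis. Signals rank peaks within a list and are not occupancy.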
